A study of Mus musculus with 6 samples.

Results

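Notch signalling was examined through 10 genes, the receptors Notch1, Notch2, Notch3 and Notch4, the ligands Dll1, Dll4, Jag1 and Jag2, and the target genes Hes1 and Hey1. Each was taken by its exact symbol from a table of 23361 genes, and all 10 were among the 14858 genes that the authors tested. The study sequenced RNA of cells described as satellite cells, from mice that were wild type or null for AUF1. AUF1 is the RNA-binding protein encoded by Hnrnpd that acts on AU-rich elements of messenger RNAs. Both genotypes were sampled at 4 months of age on a C57BL/6 and 129 background, with 3 samples each. Hindlimb muscle was dissociated with collagenase and cells carrying Sdc4 were collected by flow sorting. Markers of endothelial cells, pericytes, fibroblasts and Schwann cells were abundant in this RNA, as given below, while Pax7 was low. The levels of the Notch genes therefore cannot be assigned to satellite cells alone. The labels name no promoter, Cre line or other agent, and do not say whether samples of a genotype came from separate mice.

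The deposited table gives 1 pooled value per gene for each of 2 conditions, called q1 and q2, on the FPKM scale (fragments per transcript length and sequencing depth), to judge from its layout, since its headings name no unit. No value per sample was analysed here, so no SD or n stands beside a gene, and the depth per sample is unknown. No label says which of them holds the AUF1-null samples. The title under which the table was deposited mentions WT ahead of KO, but the table itself does not tie q1 or q2 to either, so no genotype was assigned and every direction below is that of q2 against q1. Hnrnpd itself was at 7.5 in q1 and 5.59 in q2 (Cuffdiff q = 0.999 in the authors' deposited table) and so does not tell the conditions apart. A gene was counted as called when the Cuffdiff q-value, the p-value adjusted over all tested genes, lay below 0.05.

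In the Notch pathway, ligands of the Delta and Jagged families on one cell bind a Notch receptor on a neighbouring cell. The receptor is then cleaved, and its intracellular part enters the nucleus, joins the DNA-binding protein Rbpj and switches on target genes such as those of the Hes and Hey families. In skeletal muscle the pathway is known for keeping satellite cells quiescent, and in blood vessels it takes part in the choice between tip and stalk cells and in arterial identity.

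None of the 10 genes was called, but 8 of them lay lower in q2 than in q1. Over all tested genes, 0.612% were called, and 0.114% were called lower. Of all tested genes 51.3% had a lower value in q2, and of the 7272 tested genes whose mean lay between those of Notch4 and Dll4 (5.25 to 64.2 FPKM) 52.8% did. The median log2 fold change of q2 over q1 was -0.29 for the 10 genes, against -0.01 for all tested genes above 0 in both conditions and -0.03 for genes of that range of levels. Relative to the median of 15 endothelial markers, 4 of the 10 genes lay below 0 and the median was 0.06. This reference was chosen after the values were seen. Its own median of -0.35 lay below that of the 10 genes, which fixed the turn of their median. The pericyte, fibroblast, Schwann cell and satellite cell lists had medians of -0.08, -0.15, 0.08 and 0.18 and were not used as references. Because the samples are bulk RNA, fewer cells of a type and less RNA per cell cannot be told apart.

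**Figure D1:**
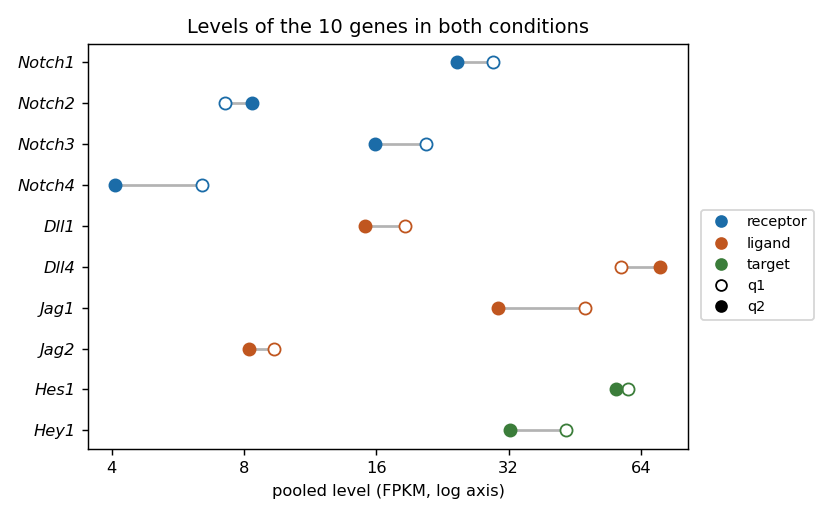
Pooled level of each of the 10 genes on a log axis in FPKM, with q1 as open and q2 as filled circles, coloured by role; there are no error bars because each condition has 1 pooled value. All but Notch2 and Dll4 lie to the left in q2. That direction turns for Notch1, Dll1, Jag2 and Hes1 relative to endothelial markers, the only marker list on which values were centred.

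Among the receptors, Notch1 was the most abundant and Notch4 the least in both conditions. Notch1, the receptor at chr2:26457902-26503822 (GRCm38), was at 29.5 FPKM in q1 and 24.4 in q2. Notch3, a receptor known from vascular smooth muscle cells and pericytes, at chr17:32120893-32166852, was at 20.8 and 15.9. Notch2, at chr3:98013538-98150367, was the only receptor with the higher value in q2, at 7.26 and 8.35. Notch4, a receptor known mainly from endothelial cells, at chr17:34564295-34588543, was at 6.41 and 4.08.

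The leading receptor kept its share of the receptor total. Notch1 made up 46.2% of the summed FPKM of the 4 receptors in q1 and 46.3% in q2, and Notch3 32.5% and 30.2%. Notch2 made up 11.3% and 15.8% and Notch4 10.0% and 7.74%. Notch2 and Notch4 were 2.92-fold and 5.98-fold below Notch1 in q2. These shares compare levels per transcript length, and no replicate spread is available to tell neighbours in this order apart.

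Tested between conditions, Notch4 showed the largest difference of the receptors, 1.57-fold lower in q2, with p = 0.0967 (Cuffdiff, unadjusted) and q = 0.999 in the authors' deposited table. Notch3 was 1.31-fold lower (p = 0.252) and Notch1 1.21-fold lower (p = 0.427), while Notch2 was 1.15-fold higher (p = 0.584), each by Cuffdiff in the authors' deposited table. All 4 had a q of 0.999 there. The median log2 fold change of the receptors was -0.33.

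Among the ligands, Dll4 and Jag1 were the abundant ones, with levels that lay further apart in q2 than in q1. Dll4, a Delta ligand known from arterial and sprouting endothelium, at chr2:119321199-119335666 in the table, was at 57.6 FPKM in q1 and 70.9 in q2. Jag1, a Jagged ligand, at chr2:137081451-137116520, was at 47.7 in q1 and 30.2 in q2. The ratio of Dll4 to Jag1 was therefore 1.21 in q1 and 2.35 in q2, and Dll4 made up 43.2% and 57.0% of the summed ligand FPKM. Jag1 made up 35.8% and 24.3% of the same sum. The difference between these ratios was not tested, since each rests on 1 pooled value per gene and condition.

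Dll1, the Delta ligand at chr17:15367354-15375823, was at 18.6 and 15.1 FPKM in q1 and q2. Jag2, at chr12:112908590-112929495, was the least abundant ligand, at 9.37 and 8.24. Both were lower in q2, Dll1 by 1.23-fold (p = 0.413) and Jag2 by 1.14-fold (p = 0.613) by Cuffdiff in the authors' deposited table. Dll4 was 1.23-fold higher in q2 (Cuffdiff p = 0.407 in the authors' deposited table).

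Jag1 had the largest difference of the 10 genes and the smallest p-value. It was 1.58-fold lower in q2, a log2 fold change of -0.66, with p = 0.04995 before and q = 0.834 after adjustment by Cuffdiff in the authors' deposited table. An unadjusted p below 0.05 was met by 5.99% of all tested genes, or 890 genes, and met with a lower value in q2 by 2.27%. Jag1, the 1 member among them, had the largest p of those 890 genes. Of the 2844 tested genes whose mean level lay within 2-fold of that of Jag1, 8.15% had a larger difference in either direction.

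The differences of these genes were smaller than those the authors' test called at the same level. Among the genes within 2-fold of the level of Jag1, 18 were called, the smallest of them at 3.05-fold, and the 3 called lower began at 3.90-fold. For the levels of Notch4, 15 of 4598 genes were called, from 3.07-fold upward. For the other members the smallest called fold at their level lay between 3.05 and 3.17. The difference of Jag1 was thus below every fold called at its level in this table, so an uncalled gene cannot be read as an unaltered one.

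**Figure D2:**
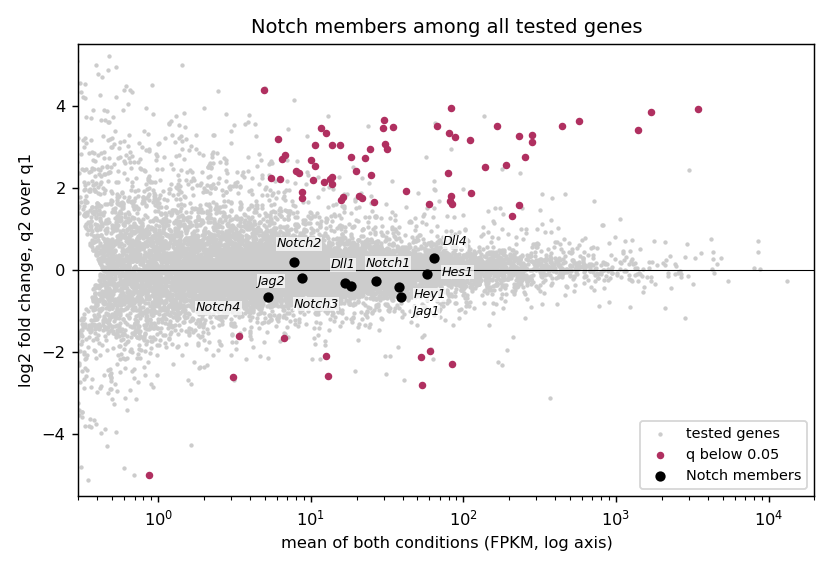
Log2 fold change of q2 over q1 against the mean of both conditions (FPKM, log axis) for 14724 tested genes above 0 in both conditions, with called genes in red and the 10 Notch genes in black; 55 tested genes lie outside the axes. The Notch genes lie between -0.66 and 0.30, inside the band of uncalled genes.

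The target genes Hes1 and Hey1 were as abundant as the main ligands. Hes1, a transcriptional repressor of the basic helix-loop-helix family at chr16:30065357-30067796, was at 60.0 FPKM in q1 and 56.3 in q2, above 89.2% and 88.3% of tested genes. Hey1, a related repressor known from arterial endothelium, at chr3:8663359-8667038, was at 43.2 and 32.2. Hes1 was 1.06-fold lower in q2 (p = 0.808) and Hey1 1.34-fold lower (p = 0.216) by Cuffdiff in the authors' deposited table. Hes1 thus had the smallest difference of the 10 genes, and 75.4% of the genes at its level differed more. The ratio of Hes1 to Hey1 was 1.39 in q1 and 1.75 in q2.

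Ordered by level in q1, the genes ran from Hes1 through Dll4, Jag1, Hey1, Notch1, Notch3, Dll1, Jag2 and Notch2 to Notch4. In q2 the order was Dll4, Hes1, Hey1, Jag1, Notch1, Notch3, Dll1, Notch2, Jag2 and Notch4. Neighbours changed places in 3 pairs, Hes1 with Dll4, Jag1 with Hey1, and Jag2 with Notch2. Without replicate values it cannot be said which neighbours differ beyond their spread.

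Several of these genes overlap others, and no source used here gives the strand setting of the counting. In GENCODE vM21 (GRCm38), Notch1, Notch3, Notch4, Dll1 and Dll4 share bases with a gene or pseudogene on the opposite strand. For Dll4 this is Gm14207, which the authors listed under the same region as Dll4, at 3.14 FPKM in q1 and 7.24 in q2. The region given for Dll4 begins at base 119321199 of chromosome 2, near the end of Gm14207 at 119321187, whereas Dll4 itself begins at 119325784 in GENCODE. How reads were divided between the pair was not tested, and the higher Dll4 to Jag1 ratio in q2 carries that limit. Jag1, Hes1 and Hey1 overlap no other annotated gene.

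AUF1 binds AU-rich elements, so each gene's longest 3' UTR in the annotation was searched for ATTTA and for TATTTAT, which contains it, on the transcript strand and with overlapping matches counted. Jag1 carried 10 ATTTA and 5 TATTTAT in 1568 bases. Of the 6301 tested genes whose 3' UTR was within 2-fold of that length, 96.8% had fewer ATTTA than Jag1, and 34.6% had any TATTTAT. Notch1 followed with 4 TATTTAT in 1628 bases, and Notch3, Notch4, Dll1 and Dll4 had 1 each. Notch2, Jag2, Hes1 and Hey1 had none, in 3' UTRs of 2917, 1070, 368 and 1137 bases. Of all 13070 tested genes with an annotated 3' UTR, 29.7% held TATTTAT, against 6 of the 10 genes here.

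The matches of Jag1 are shown because that gene had both the most matches and the smallest p-value, and 1 match each of Notch1, Notch4 and Dll4 for comparison, since Notch4 lay lower and Dll4 higher in q2. Each is a stretch of 27 bases of the transcript strand, with T for U, in GENCODE vM21 and GRCm38 positions, and capitals mark TATTTAT. In the first stretch of Jag1 and in that of Notch1, overlapping matches run together.
Jag1 matches 1 and 2, chr2:137082665-137082691, minus strand: atcatagtttTATTTATATTTATtgac
Jag1 match 3, chr2:137082541-137082567, minus strand: atgactttatTATTTATttttttttat
Jag1 match 4, chr2:137082334-137082360, minus strand: cattccttttTATTTATatgtatgtgt
Jag1 match 5, chr2:137081469-137081495, minus strand: tgaaaagtaaTATTTATtaaatttttt
Notch1 matches 1 and 2, chr2:26459361-26459387, minus strand: ttttttttagTATTTATTTATgtactt
Notch4, chr17:34588290-34588316, plus strand: agctggcaacTATTTATtaagcaccta
Dll4, chr2:119335619-119335645, plus strand: atataatgtgTATTTATaatatgaaac

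Genes with and without these letters lay on both sides of 0. Of the 6 genes with TATTTAT 5 lay lower in q2, and of the 4 without it 3 did. The 6 genes with TATTTAT had a median log2 fold change of -0.34 and the 4 without one of -0.14, and Dll4, with a match, had the largest positive difference. Over all tested genes with an annotated 3' UTR and above 0 on both sides, the medians were -0.07 for 3872 genes with TATTTAT and 0.01 for 9173 genes without it. Of these genes 57.4% and 48.9% lay lower in q2. The medians and shares describe a search for letters, and the length of the 3' UTR was not taken into account. Binding was not measured here.

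**Figure D3:**
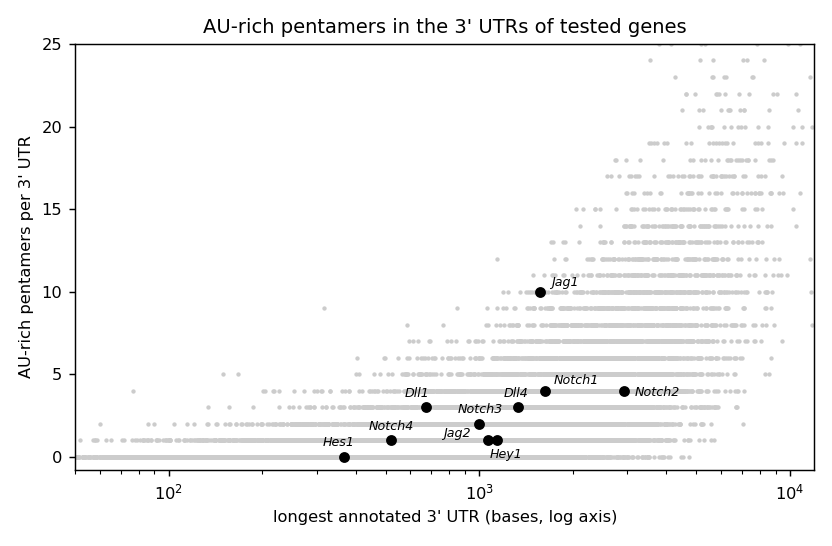
Number of ATTTA pentamers against the length of the longest annotated 3' UTR (log axis) for tested genes, in grey, with the 10 Notch genes in black; 156 genes lie outside the axes. Jag1, with 10 pentamers in 1568 bases, lies near the upper edge of the genes of its length, and Hes1, with 368 bases, has none.

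The other genes of the pathway were listed by role. Of 76 further genes, 69 were tested, and 51 of these lay lower and 18 higher in q2, where 51.3% of all tested genes lay lower. Their median log2 fold change was -0.17, against -0.01 over all tested genes. None of the 69 was called, and at 0.612% called over all tested genes a count of 0 is near the background. By Cuffdiff's unadjusted p in the authors' deposited table, 1 of the 69 lay below 0.05, where 5.99% of all tested genes did. This was Ccnd1, a cyclin of early cell cycle reported as a Notch target, at 25.7 FPKM in q1 and 11.2 in q2 (p = 0.00195, q = 0.187 by Cuffdiff in the authors' deposited table). Ccnd1 and the genes named below beyond the 2 most abundant of each role were chosen after their values were seen.

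Genes that cleave the receptor lay around 0, with 6 of 10 lower and a median of -0.01. Psenen, a subunit of gamma-secretase, was at 176.9 and 174.9 FPKM in q1 and q2, and Ncstn, another subunit, at 58.1 and 55.6. Aph1c, also a subunit, was low at 0.82 and 1.85 and had the smallest p of this group (p = 0.05065, q = 0.837 by Cuffdiff in the authors' deposited table). Among 5 genes for receptor glycosylation the median was -0.04, and Mfng, a Fringe glycosyltransferase, was at 38.3 and 35.5 while Poglut1, an O-glucosyltransferase, was at 21.1 and 21.2.

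Genes of ligand endocytosis had a median of -0.21, with 4 of 7 lower. Epn2, an epsin, was at 41.8 and 36.0 FPKM, and Neurl3, of the neuralized family of ubiquitin ligases, at 23.7 and 26.2. Of 4 further ligands and ligand-like genes, Dll3 and Dner were not tested, and Dlk1 and Dlk2 were at most 0.81 FPKM in either condition.

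Genes of the nuclear complex and its regulators lay mostly lower in q2. Of 9 members of the nuclear complex and co-activators, 7 were lower, with a median of -0.17. Rbpj, the DNA-binding protein of the pathway, was at 23.3 and 19.3 FPKM, Snw1, a co-activator that also acts in splicing, at 65.2 and 60.1, and Maml2, of the mastermind family, at 28.0 and 23.3. Of 12 co-repressor genes 11 were lower, with a median of -0.28. Hdac1, a histone deacetylase, at 62.3 and 64.7, was the exception, and Ncor1, a nuclear receptor co-repressor, was at 33.8 and 25.2. Among inhibitors and turnover genes 9 of 11 tested were lower, with a median of -0.27, among them Dtx3, of the Deltex family, at 83.7 and 70.0, and Numb, an endocytic inhibitor of Notch, at 31.3 and 26.0.

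Genes listed as further targets beyond Hes1 and Hey1 had a median of -0.09 over 14 tested genes, with 10 lower. The list includes Hes6, which lay higher in q2, at 3.76 and 4.89 FPKM. Whether each listed gene responds to Notch in these cells was not tested. Nr4a1, a nuclear receptor that many signals induce, was at 624 and 622 FPKM, and Myc, a transcription factor of cell growth, at 105 and 118. Heyl, a Hey relative expressed in satellite cells and vascular smooth muscle, was at 33.7 and 28.0, and Hey2 at 2.44 and 3.13, so Hey1 was 17.7-fold above Hey2 in q1 and 10.3-fold in q2. Nrarp, a feedback inhibitor that is on both the target and the inhibitor list, was at 10.5 and 8.52. Hes2, Hes3 and Hes5 were listed at 0 in both conditions and Hes7 at 0 and 0.05, and none of these 4 was tested.

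**Figure D4:**
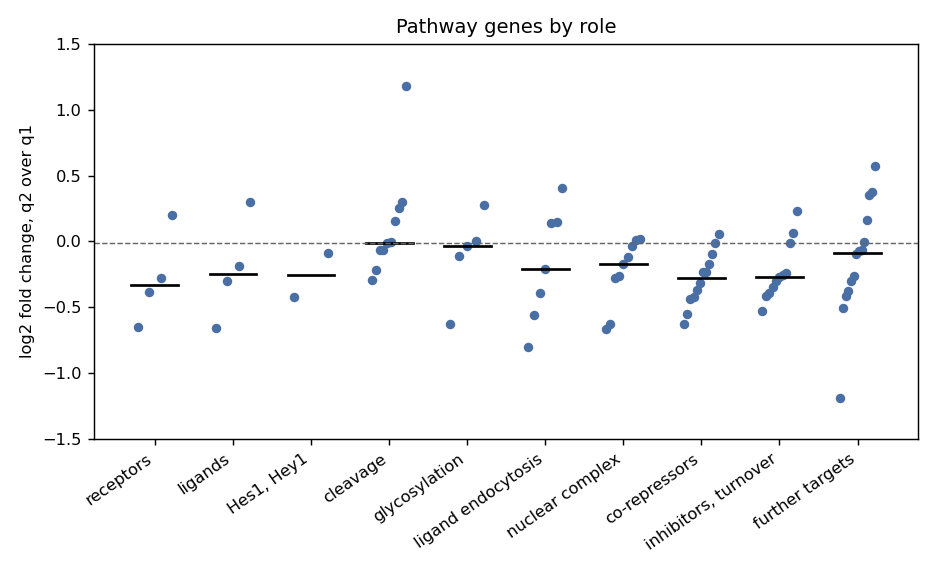
Log2 fold change of q2 over q1 for tested pathway genes grouped by role, 1 point per gene, with a bar at each group's median and a dashed line at the median of all tested genes (-0.01); further ligands are left out. No gene is called, and the medians run from -0.33 for receptors to -0.01 for receptor cleavage.

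The levels of markers were set beside these values, because Notch genes are expressed by several cell types of muscle. Of 12 satellite cell markers, which share Heyl and Calcr with the further target genes, 7 lay higher and 5 lower in q2. Their median log2 fold change was 0.18 and none was called. They differed widely in level, with Pax7, the defining transcription factor, at 1.16 and 0.85 FPKM, Myf5 at 16.7 and 17.8, the adhesion molecule Vcam1 at 90.8 and 65.1, and the sorted protein's gene Sdc4 at 173 and 270. Cxcr4, a chemokine receptor, was the 1 marker of this list with an unadjusted Cuffdiff p below 0.05 (p = 0.023 in the authors' deposited table), at 9.78 and 18.8. Endothelial markers were abundant, with Egfl7 at 911 and 822 and Esam, an adhesion molecule, at 663 and 602. All 15 lay lower in q2, 3 of them (Vwf, Sox17 and Sox18) at an unadjusted Cuffdiff p below 0.05 in the authors' deposited table and none called, with a median log2 fold change of -0.35 and a summed level of 3318 and 2798. The 7 arterial markers include Hey1 and share Sox17 with the endothelial list and Efnb2 with the further target genes. All 7 were lower. Their median of -0.42 is the value of Hey1 itself. Nrp1, a co-receptor for VEGF, was at 263 and 223 and Gja4, a gap junction protein, at 82.1 and 69.3. Dll4 lay higher in q2 (Cuffdiff p = 0.407 in the authors' deposited table), while every endothelial and arterial marker on these lists, Hey1 included, lay lower. None of these genes was called. The region that Dll4 shares with Gm14207 limits this comparison too.

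Markers of pericytes and smooth muscle, cells known to express Notch3, had a median of -0.08, with 6 of 10 lower. Rgs5, a pericyte gene, was at 2279 and 3553 FPKM and Tagln, a smooth muscle gene, at 544 and 405. The ratio of Notch3 to Pdgfrb, the pericyte receptor for PDGF-B, was 0.283 in q1 and 0.264 in q2. Fibroblast markers, led by Gsn at 3583 and 2822 and Dcn at 1259 and 1407, had a median of -0.15. Schwann cell markers, led by Pmp22 at 613 and 647 and Mbp at 595 and 651, had a median of 0.08. Muscle fibre markers, 7 of 7 tested higher in q2, had a median of 0.80; the actin gene Acta1 had values of 723 and 1262, and the troponin gene Tnnc2 had 517 and 1101.

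Neutrophil markers were higher in q2, and other leukocyte lists held called genes too. Of 10 neutrophil markers 9 were called, S100a8, S100a9, Ngp, Camp, Retnlg, Lcn2, Ltf, Mpo and Mmp8, and their list took 0.185% of the summed FPKM in q1 and 2.21% in q2. Of 9 macrophage and monocyte markers, 6 lay higher and 3 lower in q2, with a median of 1.21. Tyrobp, Ly6c2 and Ccr2 among them were called higher, while Csf1r, the macrophage growth factor receptor, was at 83.8 and 49.7, Emr1 at 26.3 and 23.5 and Mrc1 at 39.3 and 38.7. All 8 tested lymphocyte markers lay higher, with a median of 2.31, and Nkg7 was called. The part of any of these cell types in the values of the Notch genes was not tested.

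**Figure D5:**
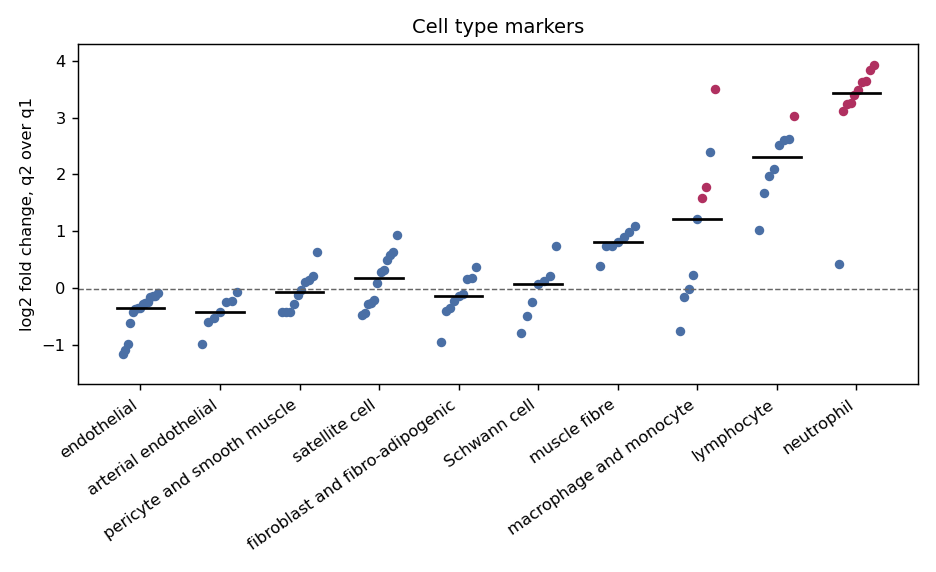
Log2 fold change of q2 over q1 for tested cell type markers, 1 point per gene, with called genes in red, a bar at each list's median and a dashed line at the median of all tested genes. The endothelial list lies below 0 for all 15 genes and the neutrophil list above 0 for all 10.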

How the data were processed

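RNA of 6 samples was sequenced, and 1 table with the layout of Cuffdiff was used. Alignment used TopHat2 (version 2.0.9) and quantification Cufflinks (version 2.2.1), to go by the submitters' processing notes, and the annotation, library normalization and strandedness were not stated in any source used here. These notes give mm9 as the build, but the positions are those of GRCm38: 4 of the 10 genes share an end exactly with GENCODE vM21. Starts were raised by 1 to be 1-based. Per the file headers, the authors deposited 1 pooled value per condition, taken here as FPKM from the Cuffdiff layout. They also deposited a log2 fold change, a test statistic (a score, not used further), a p-value and a q-value. The q-value equalled a Benjamini-Hochberg adjustment over the 14858 tested genes within 5.12e-07; 8499 genes were not tested and 4 had too many fragments.

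Genes were read by symbol from the whole table with pandas 2.3.3 and nothing was refitted. The genes and lists were chosen with earlier results of these data known. The text names all 10 genes, and from each role or marker list the called genes or the 2 highest by mean; others were chosen after their values were seen. With 2 pooled values, no genes of like pattern were ranked. 3' UTRs are the longest of protein-coding GENCODE transcripts with a stop codon, found for 88.0% of tested genes. Alternatives covered the call rule, low values, pseudocounts of 0.1 and 1, centring and rescaling. The adjustment was tested on simulated data.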

Additional observations from a re-analysis of the deposited data

How the results depend on the processing

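The count of called genes among the 10 was 0 by the deposited q, at a q below 0.1, and after p-values were adjusted again over 13417 genes of at least 1 FPKM or 14779 genes above 0; the lowest q was then that of Jag1, at 0.797 and 0.852. With an unadjusted Cuffdiff p below 0.05 the count was 1. The median log2 fold change of -0.29 was -0.41 after rescaling each condition to the same sum (TPM), which moved every gene by -0.12, and 0.061 after centring on the endothelial markers, chosen after seeing the data, which moved every gene by 0.35. It moved by less than 0.1 under both pseudocounts, centring on all genes, and rescaling without neutrophil markers, which was also chosen after seeing the data. The minimum of 1 FPKM removed none of the 10 genes and so could not move it. Each centring or rescaling adds 1 constant to every gene, and both rescalings add a negative one, so they could not turn a gene that lay lower. The endothelial constant of 0.35 is larger in size than the median of -0.29, so the turn of that median followed from the choice of reference. Under all but the endothelial centring 8 of the 10 genes lay lower in q2; under that one 4 did, Notch3 (-0.03), Hey1 (-0.07), Notch4 (-0.30) and Jag1 (-0.31). Of 70 values for single genes and roles, 49 moved by less than 0.1 and 21 by more. Among the 49 are 10 role medians under the minimum of 1 FPKM, which removed no tested gene of those roles and could not move them. The depth behind the values is unknown. No paired analysis was possible because the table holds 1 pooled value per condition, and for the same reason no replicate was left out.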

Other observations

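Among the 69 further pathway genes with a test, 19 carried TATTTAT in the 3' UTR, or 27.5%, with a median log2 fold change of -0.24 and 14 lower in q2. The 50 without it had a median of -0.11, with 37 lower. Of the 19 with it, Aph1b, Aph1c, Hdac1, Lfng and Maml1 lay higher in q2. Aph1b was at 4.83 FPKM in q1 and 5.76 in q2, and Aph1c at 0.82 and 1.85. Ncor1 carried the most TATTTAT of the 19, with 4 TATTTAT and 15 ATTTA in 2049 bases. Aak1 carried more ATTTA, 16 in 15925 bases. Ncor1 was at 33.8 FPKM in q1 and 25.2 in q2 (Cuffdiff p = 0.318 in the authors' deposited table). Crebbp, a histone acetyltransferase that serves many pathways, had 2 TATTTAT and was at 17.9 and 11.6 (Cuffdiff p = 0.0729 in the authors' deposited table). Of all tested genes, the 903 with at least 10 ATTTA, the number that Jag1 carries, had a median of -0.14, and 66.2% of them were lower in q2, against 51.3% of all tested genes; long 3' UTRs hold more matches, and length was not taken into account.

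The 250 bases before the start of each gene in the RefSeq table of GRCm38.p6 were searched on both strands for TGGGAA, the core letters bound by Rbpj. The table matched 8 of the 10 genes, not Hes1 and Hey1, with 9 promoters. None of the 8 held the letters, while 21.6% of 32851 promoters did. Other sets of letters searched in the same way, each found in 6.02% to 12.4% of all promoters, were also absent from these 8 genes. Those letters are rarer over all promoters than TGGGAA. Their absence from so few promoters therefore cannot show whether the absence is particular to the Rbpj letters. Whether 0 matches in only 9 promoters differs from the share over all promoters was not tested. The promoter of Jag2 held 54 CG pairs, more than 99.98% of all promoters, and that of Notch4 held 4, where the median over all promoters was 6. The remaining promoters of these genes held 13 to 34, all above that median.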
